A study of Mus musculus with 17 samples.

Results

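Glycolysis splits glucose into pyruvate in the cytosol and yields ATP without oxygen, and the gene family described here covers its entry and most of its steps. It holds 10 genes, chosen by symbol out of the 24536 genes listed in the count tables: Slc2a1, Hk2, Pfkp, Aldoa, Tpi1, Gapdh, Pgk1, Eno1, Pkm and Ldha. The counts came from 17 single-cell libraries of small-intestinal organoids, epithelial structures grown in gel from the crypts of wild-type C57BL/6 mice aged 1 to 6 months. All organoids received EGF, Noggin and R-spondin 1 (ENR). At day 0, 2 libraries held organoids kept in ENR+CV, that is with CHIR99021, a GSK3 inhibitor that activates Wnt signalling, and valproic acid, a histone deacetylase inhibitor, which together enrich stem cells. The other libraries held organoids moved to ENR+CD, in which DAPT, an inhibitor of γ-secretase and so of Notch cleavage, replaced valproic acid and directs the cells towards Paneth cells. Of these, 7 were controls (days 0.25, 1, 2, 3 and 4 with 1 library each, day 6 with 2) and 8 had 160 nM KPT-330, an inhibitor of the nuclear exporter XPO1 (days 0.25, 1, 2 and 4 with 1 library each, days 3 and 6 with 2). A library pooled organoids from several gel domes, so it is 1 sample however many cells it holds. The labels do not say whether replicate libraries came from separate cultures. The paper reports independent repeats of its other experiments, and makes an exception for its single-cell work. Differences between replicate libraries may therefore be technical. With mostly 1 library per day and condition, p-values of KPT-330 against control rest in part or wholly on how the difference varied between days. Those of a slope over days also include departures from a line. Tests of other untreated days against day 0 took their spread from the day 0 and day 6 replicates only.

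In the pathway, Slc2a1 (GLUT1) is a facilitative glucose transporter, and Hk2, a hexokinase bound to mitochondria, phosphorylates glucose and so traps it in the cell. Pfkp, the platelet-type phosphofructokinase, catalyses the committed step, and Aldoa, an aldolase, cleaves its product into triose phosphates that Tpi1 interconverts. Gapdh, Pgk1, Eno1 and Pkm carry the triose phosphates to pyruvate, with ATP made by Pgk1 and Pkm, and Ldha reduces pyruvate to lactate and regenerates NAD+. In the intestinal crypt, glycolysis and mitochondrial respiration are known to be used to different degrees by stem cells, Paneth cells and absorptive cells. Absorptive enterocytes also take up dietary sugars through dedicated transporters and make some glucose, which uses several of the same reversible steps.

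The bases before the transcription start are shown for Slc2a1, Hk2, Pfkp and Pgk1, each with 1 start in RefSeq (GRCm38.p6). Across libraries the first 3 followed the mean of the other members least (Pearson r = 0.11, -0.43 and 0.52), and Pgk1 followed it more closely (0.76). Each line gives the 250 bases upstream of the start, 5′ to 3′ on the gene's strand, with capitals for ACGTG or GCGTG on either strand, the cores bound by hypoxia-inducible factors.
Slc2a1, chr4:119108495-119108744, + strand: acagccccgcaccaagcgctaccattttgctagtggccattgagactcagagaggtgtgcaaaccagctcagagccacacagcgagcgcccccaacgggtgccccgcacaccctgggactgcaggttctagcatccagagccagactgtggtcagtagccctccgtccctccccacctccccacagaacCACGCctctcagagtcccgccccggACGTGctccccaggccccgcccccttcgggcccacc
Hk2, chr6:82774455-82774704, - strand: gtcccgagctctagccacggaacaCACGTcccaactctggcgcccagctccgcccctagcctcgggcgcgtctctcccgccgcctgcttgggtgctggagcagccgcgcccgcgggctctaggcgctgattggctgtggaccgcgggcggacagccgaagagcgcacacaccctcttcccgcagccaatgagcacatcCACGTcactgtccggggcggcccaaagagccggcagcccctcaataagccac
Pfkp, chr13:6648772-6649021, - strand: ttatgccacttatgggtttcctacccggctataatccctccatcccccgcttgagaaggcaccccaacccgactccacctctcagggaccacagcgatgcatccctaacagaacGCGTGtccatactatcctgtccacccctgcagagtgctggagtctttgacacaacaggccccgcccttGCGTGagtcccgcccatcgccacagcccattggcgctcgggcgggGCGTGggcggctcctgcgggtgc
Pgk1, chrX:106186850-106187099, + strand: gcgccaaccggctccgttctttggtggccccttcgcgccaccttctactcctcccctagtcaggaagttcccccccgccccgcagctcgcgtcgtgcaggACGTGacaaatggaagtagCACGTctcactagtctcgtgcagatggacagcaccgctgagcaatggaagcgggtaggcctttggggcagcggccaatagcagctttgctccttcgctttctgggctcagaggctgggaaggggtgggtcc
Slc2a1 held 1 ACGTG and 1 GCGTG in this window, Hk2 2 ACGTG, Pfkp 3 GCGTG and Pgk1 2 ACGTG. Tpi1 and Gapdh, whose bases are not printed, also have 1 start. Tpi1, which followed the mean of the other members more closely than Pgk1 (r = 0.87), held neither core, and Gapdh held 2 GCGTG. With 1 start per gene, ACGTG occurred in 16.6% and GCGTG in 28.2% of 27025 promoters, and either in 38.6%. Among the members, 7 of 10 held either core at the first start listed. Aldoa and Pkm held ACGTG only at other starts, so the count depends on the start used. CACGTG, the E-box that contains ACGTG and that Myc family and carbohydrate-response factors bind, occurred in 6.05% of promoters and in 1 member, Ldha. A match is a stretch of letters and was not tested as a binding site.

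Positions of the members in GRCm38 (mm10, GENCODE) were chr4:119108711-119137983 for Slc2a1, chr6:82725025-82774454 for Hk2, chr13:6579768-6648777 for Pfkp, chr7:126795234-126800751 for Aldoa, chr6:124810586-124814296 for Tpi1, chr6:125161715-125166467 for Gapdh, chrX:106187100-106203699 for Pgk1, chr4:150236721-150248879 for Eno1, chr9:59656368-59679375 for Pkm and chr7:46841475-46855627 for Ldha. Glycolysis genes have many processed copies, so each longest transcript was cut into windows of 50 bases, the length of the sequenced read. Of these windows, 82.5% in Gapdh occurred in transcripts of 222 other annotated genes, 72.2% in Eno1 and 68.0% in Pgk1. The share was 34.4% in Pkm, 17.1% in Pfkp, 16.6% in Ldha, 13.5% in Aldoa, 7.51% in Tpi1, 1.74% in Slc2a1 and 0 in Hk2. Reads come from transcript ends, and within the last 600 bases the share was 92.2% in Gapdh, 74.8% in Eno1 and 24.1% in Pgk1. There it was 9.44% in Aldoa, 1.81% in Pkm and 0 in Slc2a1, Hk2, Tpi1 and Ldha. How the counting treated reads with several matches is not given in the sources used here. The values of Gapdh and Eno1, and to a lesser degree Pgk1, are therefore uncertain. Gapdh was counted at 11 to 146 UMIs per library and Pgk1 at 18 to 129. The last 600 bases of Pfkp lie entirely within Pitrm1, a protease gene that ends there on the opposite strand (chr13:6548149-6580515). Strand use in the counting is not stated, and Pitrm1 values are given beside those of Pfkp for most comparisons. The part of Pitrm1 in the Pfkp counts was not tested.

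Libraries held 3458887 to 12433109 unique molecular identifiers (UMIs, tags that count molecules) over the 19877 cells kept by the authors, with a median of 2676 to 8463 per cell, and 14 cell barcodes occurred in more than 1 library. The tables of 5 libraries (ENR+CV replicate 1 and all of days 0.25 and 1) listed 19823 to 21652 genes and the other 12 listed 15576 to 17849, a difference that follows the day and falls between the ENR+CV replicates, while KPT-330 and control of 1 day were always of the same kind. Summed markers of stromal, endothelial and immune cells were at 0.036 to 0.0536 UMIs per 10000 in ENR+CV, 0.0439 to 0.331 in controls and 0.0416 to 0.704 with KPT-330, and their part in the results was not tested. Over all libraries, Lyz2 alone held 2277 UMIs of this list and each other gene 3 to 75, with Cd3e at 4 and Ptprc at 3.

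Over the untreated time course, 2 patterns appeared. Pfkp, Eno1, Gapdh, Ldha, Tpi1, Aldoa and Slc2a1 were lower at day 6 in ENR+CD than at day 0 in ENR+CV, at 0.26 to 0.68 of the day 0 level, whereas Hk2 was higher, at 2.07 times that level. Pkm and Pgk1 did not pass the test. Both day 0 libraries were in ENR+CV and all later ones in ENR+CD. In comparisons with day 0, medium and day therefore cannot be told apart. Levels are given as CPM, the UMIs of a gene per 1000000 UMIs of a library after scaling with edgeR's TMM factors, and because reads come from transcript ends, levels are compared between samples and not between genes. In summed libraries, fewer cells of a type and less RNA per cell cannot be told apart.

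Pfkp was at 201 and 182 CPM in the 2 ENR+CV libraries, at 92.1, 87.8, 89.2, 65.7 and 70.4 on days 0.25, 1, 2, 3 and 4, and at 54.3 and 74.6 on day 6. Every ENR+CD control thus lay below both ENR+CV libraries, already at the first time point. The difference of day 6 from day 0 was -1.63 ± 0.21 on the log2 scale (SE, edgeR adjusted p = 2.3e-05). The overlapping Pitrm1 differed by -0.55 (edgeR adjusted p = 0.0226).

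Hk2 ran the other way, at 51.5 and 50.4 CPM on day 0, 52.4 and 49.9 on days 0.25 and 1, 78.6 on day 2, 134 on day 3, 105 on day 4, and 110 and 109 on day 6. The libraries up to day 1 lay within 49.9 to 52.4, and all later controls were above them. The log2 difference of day 6 from day 0 was 1.05 ± 0.18 (edgeR adjusted p = 0.000329), and it held under all 16 alternatives (0.93 to 1.09).

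Eno1, which converts phosphoglycerate to phosphoenolpyruvate, was at 106 and 97.7 CPM on day 0, at 42.3 and 37.4 on days 0.25 and 1, between 63.7 and 69.6 on days 2 to 4, and at 29.1 and 40.4 on day 6. Its ENR+CD levels were higher in the middle of the course than at either end. Tpi1 had the same shape, with 353 and 390 on day 0, 220 on day 1, 317 on day 2 and 190 and 224 on day 6. Ldha was at 561 and 643 on day 0, 428 and 409 on days 0.25 and 1, 579 on day 2, 462 and 484 on days 3 and 4, and 269 and 389 on day 6. For each of these genes, replicate 1 was the lower of the 2 day 6 libraries. Controls of days 0.25 to 4 had 1 library each. Those of days 0.25 and 1 were replicate 1 with the longer gene list, and those of days 2 to 4 replicate 2 with the shorter. Between these 2 sets of days, day, replicate number and kind of table cannot be told apart. The log2 differences of day 6 from day 0 were -1.62 ± 0.21 for Eno1, -0.90 ± 0.20 for Tpi1 and -0.92 ± 0.23 for Ldha (edgeR adjusted p = 2.32e-05, 0.0025 and 0.00525).

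Gapdh was at 21.3 and 9.67 CPM in the ENR+CV libraries, which themselves lie far apart, and at 3.63 and 4.89 on day 6 (log2 difference -1.94 ± 0.39, edgeR adjusted p = 0.00125). Aldoa (-0.64 ± 0.23, edgeR adjusted p = 0.0334) and Slc2a1 (-0.56 ± 0.20, edgeR adjusted p = 0.0346) differed less. Slc2a1 was at 34.8 and 37.0 on day 0 and at 22.9 and 28.1 on day 6, with all controls but that of day 4 (34.9) at 28.1 or below. Pgk1 (-0.72 ± 0.30, edgeR adjusted p = 0.0654) and Pkm, the pyruvate kinase of most proliferating tissues (-0.09 ± 0.24, edgeR adjusted p = 0.78), did not pass. Pkm was at 604 and 756 on day 0 and at 545 and 776 on day 6, so that the groups overlapped.

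In this comparison, 1 of the 10 members was higher and 7 were lower, against 21.1% and 21.7% of the 13370 genes tested, and the median log2 difference was -0.81 against 0.0075 over all genes. Without day 6 replicate 1, Aldoa, Ldha and Slc2a1 lost their calls and 5 members kept theirs. Aldoa also lost its call without day 6 replicate 2 or ENR+CV replicate 2, and Slc2a1 without ENR+CV replicate 2. Slc2a1 lost it in 5 of 16 alternatives in all, also with DESeq2 (-0.54, adjusted p = 0.198), with no filter on low counts (adjusted p = 0.0718) and without the 50 most abundant genes (adjusted p = 0.0521). Among libraries whose tables had the shorter gene list, Pfkp was at 182 in ENR+CV and at 54.3 and 74.6 on day 6.

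The first day after the change of medium was compared after these values had been seen. Pfkp and Eno1 were lower on days 0.25 and 1 than on day 0, with log2 differences of -1.07 ± 0.20 and -1.34 ± 0.20 (edgeR adjusted p = 0.011 and 0.00356), whereas Hk2 differed by 0.02 ± 0.18. The other 7 members had differences of -0.89 to -0.37 that did not pass. The 2 lower members stood against 2.86% of all genes lower and 1.85% higher, or 383 and 247 genes (345 and 109 when scaled by total counts). Without the day 1 library the Pfkp difference was -1.03 (edgeR adjusted p = 0.0536). Among the libraries with the longer gene list, Pfkp was at 201 in ENR+CV and at 92.1 and 87.8 on days 0.25 and 1, and Eno1 at 106 against 42.3 and 37.4. Pitrm1 differed by 0.21 (edgeR adjusted p = 0.55).

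A slope over all 9 untreated libraries called 1 member higher, Hk2 (0.20 ± 0.04 log2 per day, edgeR adjusted p = 0.00553), and 3 lower, Gapdh (-0.29 ± 0.07, edgeR adjusted p = 0.00797), Pfkp (-0.22 ± 0.05, edgeR adjusted p = 0.00936) and Ldha (-0.11 ± 0.04, edgeR adjusted p = 0.047). Of all 12493 genes, 18.6% rose and 19.9% fell, or 2323 and 2483 genes (1773 and 2900 when scaled by total counts). Pitrm1 fell as Pfkp did (-0.11 log2 per day, edgeR adjusted p = 0.0194). Without the ENR+CV libraries, Gapdh alone kept its call, and the slopes of Hk2 and Pfkp were 0.18 and -0.11 (edgeR adjusted p = 0.0691 and 0.0626). Ldha lost its call in 9 of 17 alternatives, among them the removal of day 3, day 4, either day 6 library or either ENR+CV library.

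**Figure D1:**
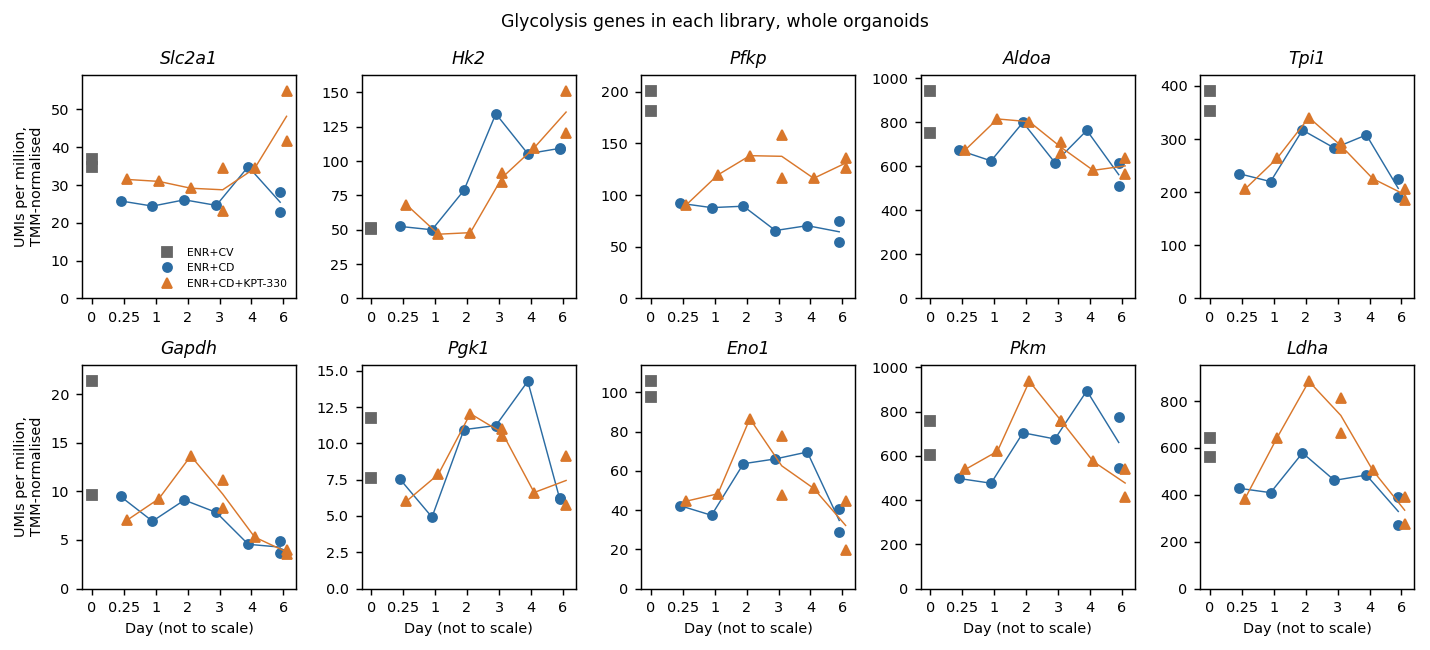
CPM (TMM-normalized, y axis from 0) of the 10 genes in each of the 17 libraries against day (x axis, not to scale), with ENR+CV as squares, ENR+CD controls as circles and ENR+CD with KPT-330 as triangles, and lines through the day means. Pfkp with KPT-330 lay at 90.2 to 159 and in controls at 54.3 to 92.1, and Hk2 in controls went from 52.4 at day 0.25 to 134 at day 3.

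Cell types were rebuilt by clustering without the members or the other listed genes, and named from markers in the study's supplement. Every named cluster had at least 3 of its markers among its 10 leading genes, although the goblet-like cluster had as many early Paneth markers. Enterocyte-like cells of untreated organoids had the highest mean of 7 members (Pfkp, Aldoa, Tpi1, Gapdh, Pgk1, Eno1 and Ldha) and the lowest of Hk2. Paneth-like and enteroendocrine-like cells were at the low end for most members but at the top for Hk2. Stem I-like cells were also low for several members. They were below Paneth-like cells for Pfkp, Aldoa, Ldha and Slc2a1 and lowest of all types for Pfkp, where Paneth-like cells came 4th. For none of the 10 members were neighbouring types in the order of levels further apart than their SDs added together. The types were present on unlike sets of days, so type and day are mixed in these means. Free RNA can give UMIs to cells that do not express a gene, and this was not modelled.

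Hk2 was at 232 ± 111 CPM in enteroendocrine-like cells (SD, n = 8 libraries), the hormone-secreting cells, followed by 108 ± 16.2 in Paneth-like (n = 5), 99.4 ± 16.1 in early secretory-like (n = 4), 96.2 ± 22.2 in goblet-like (n = 5) and 96.1 ± 16.8 in early Paneth-like cells (n = 3). The 5 secretory types thus came before the other 5, in means that mix type and day. Paneth-like cells came only from libraries of day 2 on, whereas stem III-like and enterocyte-like cells also came from days 0 to 1. Hk2 was at 57.8 ± 23.0 in stem II-like (n = 8), 56.6 ± 21.3 in stem I-like (n = 6), 47.1 ± 9.12 in stem III-like (n = 9), 33.8 ± 16.8 in early enterocyte-like (n = 5) and 10.6 ± 7.94 in enterocyte-like cells (n = 9). In enterocyte-like cells the 9 libraries together held 56 Hk2 UMIs. Within enteroendocrine-like cells, Hk2 was at 80.0 at day 0, 122 and 146 on days 0.25 and 1, 208 on day 2, and 277 to 396 from day 3 on.

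Ldha was at 1284 ± 347 CPM in enterocyte-like cells (n = 9) and 894 ± 175 in early enterocyte-like cells (n = 5), at 622 ± 193 in stem III-like (n = 9), 296 ± 59.4 in Paneth-like (n = 5) and 284 ± 139 in stem I-like cells (n = 6), and lowest at 211 ± 77.1 in enteroendocrine-like cells (n = 8). Pfkp was at 260 ± 64.1 in enterocyte-like (n = 9), 90.1 ± 28.5 in Paneth-like (n = 5), 89.6 ± 59.0 in stem III-like (n = 9), 33.6 ± 27.3 in enteroendocrine-like (n = 8) and 23.0 ± 7.63 in stem I-like cells (n = 6). In stem III-like cells, Pfkp was at 196 and 181 in the ENR+CV libraries, 92.8 on day 0.25 and 39.3 to 83.5 later. Within this type, too, both ENR+CV libraries lay above every later library. Slc2a1 ranged from 45.6 ± 37.3 in goblet-like (n = 5) to 17.1 ± 5.17 in enteroendocrine-like cells (n = 8).

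**Figure D2:**
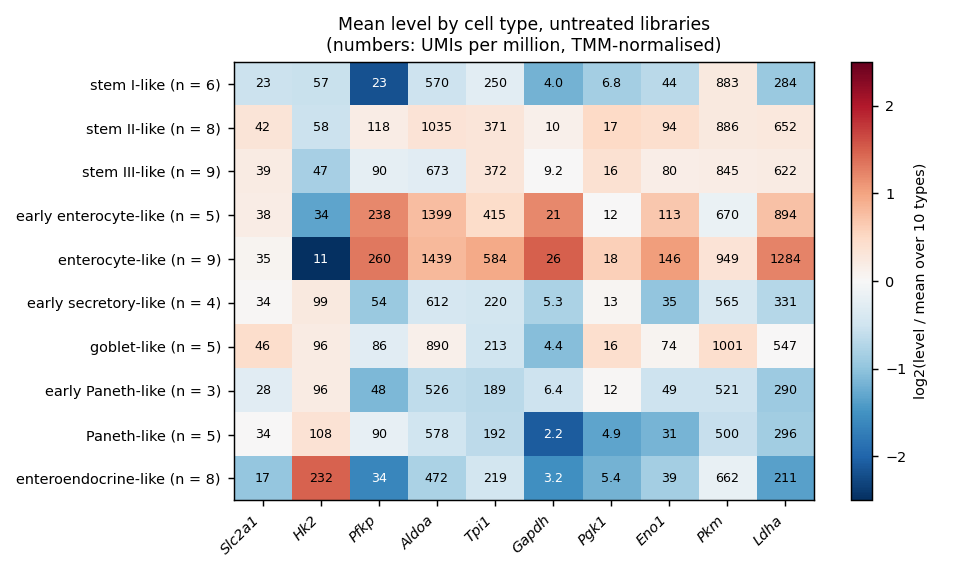
Mean level of each gene (columns) in each of 10 cell types (rows) over untreated libraries with at least 20 cells of the type, printed as CPM, with colour for the log2 ratio to the gene's mean over the 10 types. Enterocyte-like cells were high for Pfkp (260), Ldha (1284) and Gapdh (25.9) and low for Hk2 (10.6), the reverse of enteroendocrine-like cells.

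The enterocyte-like and Paneth-like cells of the same 5 libraries, all from day 2 on, were compared with the library as a block. Ldha was at 920 to 1810 in the enterocyte-like cells of these libraries and at 248 to 373 in their Paneth-like cells, without overlap. Of the 10 members, 8 were higher in enterocyte-like cells, 1 was lower and 1 did not pass, against 33.5% of 9921 genes higher and 34% lower. Higher were Gapdh (log2 difference 3.08 ± 0.48), Eno1 (2.41 ± 0.15), Ldha (2.39 ± 0.17), Pgk1 (2.29 ± 0.31), Tpi1 (1.89 ± 0.14), Pfkp (1.64 ± 0.18), Aldoa (1.48 ± 0.18) and Pkm (1.10 ± 0.15), with edgeR adjusted p of 2.41e-05 or less. In the Paneth-like cells of these 5 libraries, Gapdh rested on 24 UMIs and Pgk1 on 45. Pitrm1 differed by -1.31 where Pfkp differed by 1.64. Hk2 was lower by 3.52 ± 0.22 on the log2 scale (edgeR adjusted p = 1.67e-10), and Slc2a1 differed by 0.14 ± 0.20 (edgeR adjusted p = 0.564). All 9 calls held in all 11 alternatives.

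Stem III-like cells, marked by the cell cycle genes Mki67 and Top2a, had more Pgk1 (2.13 ± 0.35), Eno1 (1.42 ± 0.20), Ldha (1.34 ± 0.14), Tpi1 (1.19 ± 0.14) and Pkm (1.16 ± 0.14) than Paneth-like cells and less Hk2 (-1.15 ± 0.16) and Pfkp (-0.64 ± 0.21, edgeR adjusted p = 0.0121). These were 5 members higher and 2 lower, against 29.2% and 27.7% of 9392 genes. Aldoa, Gapdh and Slc2a1 had differences of 0.29, 1.51 and 0.41 that did not pass. Pgk1 and Gapdh rested on 45 and 24 UMIs in the Paneth-like cells. Pitrm1 differed by 0.81 (edgeR adjusted p = 6.06e-06). The Pfkp call was lost without day 4, day 6 replicate 1 or day 6 replicate 2 (-0.57, -0.54 and -0.46).

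Stem I-like cells, marked by Lgr5 and Smoc2, were below stem III-like cells of the same 6 libraries in 7 members, and no member was higher, against 22.4% of 9939 genes lower and 21.5% higher. The log2 differences were -1.44 ± 0.31 for Pgk1, -1.34 ± 0.10 for Ldha, -1.26 ± 0.19 for Pfkp, -0.90 ± 0.14 for Eno1, -0.88 ± 0.17 for Slc2a1, -0.69 ± 0.10 for Tpi1 and -0.23 ± 0.09 for Aldoa. Pfkp was at 11.6 to 35.2 CPM in stem I-like and, in the same libraries, at 39.3 to 83.5 in stem III-like cells, without overlap. Pitrm1 was lower as well (-0.30, edgeR adjusted p = 0.0163). The Aldoa call was lost in 9 of 12 alternatives. Hk2 (0.30 ± 0.16), Pkm (-0.18 ± 0.09) and Gapdh (-0.78 ± 0.47) did not pass.

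Enteroendocrine-like cells differed from Paneth-like cells, the other late secretory type, in 5 of 9 members tested. Hk2 (1.53 ± 0.11, edgeR adjusted p = 1.96e-08) and Pkm (0.54 ± 0.11, edgeR adjusted p = 0.000638) were higher. Pfkp (-1.57 ± 0.16, edgeR adjusted p = 7.01e-07), Slc2a1 (-0.96 ± 0.19, edgeR adjusted p = 0.00052) and Ldha (-0.53 ± 0.12, edgeR adjusted p = 0.0013) were lower. Pitrm1 was lower as Pfkp was (-0.62, edgeR adjusted p = 4e-04). Over 10928 genes, 33.4% were higher and 26.7% lower. Gapdh did not pass the filter on low counts, and Aldoa, Tpi1, Pgk1 and Eno1 had differences of -0.12 to 0.18.

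**Figure D3:**
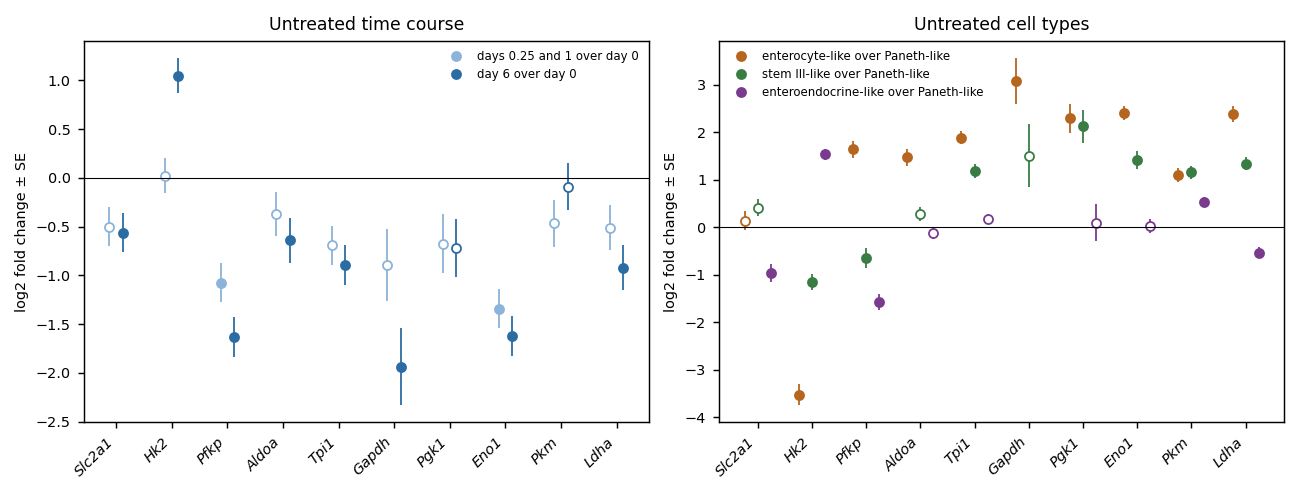
Log2 fold change ± SE (y axis) of each gene (x axis) between untreated days (left) and untreated cell types (right), with filled circles for an edgeR adjusted p under 0.05. Hk2 lay above 0 where most genes lay below it at day 6 (1.05), and below 0 in enterocyte-like over Paneth-like cells (-3.52).

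KPT-330 against control asked whether the XPO1 inhibitor changed the family during the same differentiation. In whole organoids Pfkp was higher with KPT-330, at 1.66 times the control level, and Slc2a1 at 1.33 times, while the other 8 members did not pass the test. Pfkp with KPT-330 was at 90.2, 120, 138, 116 and 159, 116, and 126 and 136 CPM on days 0.25, 1, 2, 3 (2 libraries), 4 and 6 (2 libraries), against controls of 92.1, 87.8, 89.2, 65.7, 70.4, and 54.3 and 74.6. At day 0.25 the conditions were level, and from day 1 on every KPT-330 library lay above every control, with ratios of 1.36, 1.55, 2.09, 1.65 and 2.03. The log2 difference over the 15 libraries with day as a factor was 0.73 ± 0.13 (edgeR adjusted p = 0.00188), and all 22 alternatives kept it (0.47 to 0.84, largest adjusted p = 0.0119). Pitrm1 went the other way, with -0.31 (edgeR adjusted p = 0.0088).

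Slc2a1 with KPT-330 was at 31.5, 31.0, 29.2, 23.1 and 34.4, 34.4, and 41.5 and 54.9 CPM, against controls of 25.8, 24.4, 26.1, 24.6, 34.9, and 22.9 and 28.1. Its means were higher with KPT-330 on 5 of 6 days, with ratios of 0.99 to 1.27 up to day 4 and 1.89 on day 6, where both treated libraries lay above both controls. The log2 difference was 0.41 ± 0.13 (edgeR adjusted p = 0.0335). This call was lost in 14 of 22 alternatives, among them 12 of the 15 removals of 1 library (0.32 to 0.44, adjusted p = 0.0511 to 0.0715). It remained without the control of day 4, without replicate 1 of KPT-330 day 3 and without KPT-330 day 4.

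Ldha had ratios of 1.57, 1.53 and 1.60 on days 1, 2 and 3, and of 0.90, 1.04 and 1.02 on days 0.25, 4 and 6 (log2 difference over all days 0.30 ± 0.14, edgeR adjusted p = 0.104). Hk2 with KPT-330 was lower on days 2 and 3, at 47.8 and then 91.0 and 85.0 against 78.6 and 134, and higher on day 6, at 120 and 151 against 110 and 109, and the difference over all days was -0.07 ± 0.14 (edgeR adjusted p = 0.73). Pkm was above control up to day 3 and below it on days 4 and 6 (ratios 0.64 and 0.72), with -0.04 ± 0.14 overall. Aldoa, Tpi1, Gapdh, Pgk1 and Eno1 differed by -0.04 to 0.18. A test of days 3 to 6 against days 0.25 to 2 called none of the 10 members and 0 of 12812 genes (percent called 0), with 2 members at an unadjusted p under 0.05, Pfkp (0.64 ± 0.21) and Pkm (-0.61 ± 0.24), and DESeq2 called none of the members and 56 genes.

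The 2 members called higher and 0 called lower stood against 14.4% of 12812 genes higher and 14.2% lower. The members' median log2 difference was 0.06, and that of all genes -0.0023. KPT-330 libraries from day 2 on had TMM factors of 0.70 to 0.92 and controls of 1.00 to 1.13, so the scale bears on direction. Scaled by total counts only, the median of all genes moved to -0.27 and 470 genes were higher and 4879 lower, in place of 1841 and 1820. Pfkp (0.47) and Slc2a1 (0.15) lay above that median and Tpi1 (-0.30) close to it. Against 0, which is what the test compares with, Pfkp passed, Slc2a1 did not (edgeR adjusted p = 0.432) and Tpi1 had an edgeR adjusted p of 0.046. Without the 50 most abundant genes in the totals the median was -0.13, with 1019 higher and 3024 lower. Aldoa, Eno1 and Gapdh, above 0 with TMM factors, came to -0.19, -0.21 and -0.074 with total counts, below 0 but above the median of all genes.

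Within 4 cell types, 1 member passed in 1 type. In stem III-like cells none of 10 members passed (0.275% of 9104 genes higher, 0.0439% lower), in enterocyte-like cells none of 10 (1.04% and 1.51% of 8623 genes) and in enteroendocrine-like cells none of 8 (1.01% and 1.29% of 9776 genes), and no member of these types had an unadjusted p under 0.05 in edgeR or a call in DESeq2. The Pfkp difference was 0.01 ± 0.15 in stem III-like, 0.17 ± 0.16 in enterocyte-like, 0.41 ± 0.16 in Paneth-like and 0.49 ± 0.29 in enteroendocrine-like cells. These tests covered days 0.25 to 3, 1 to 6, 2 to 6 and 0.25 to 6, in that order. The differences therefore cannot be set directly beside each other or beside that of whole organoids. In enterocyte-like cells, Pfkp was at 278, 357, 332 and 393, 299, and 185 and 318 CPM on days 1 to 6 with KPT-330, against 300, 309, 306, 252, and 160 and 257 in controls. Pitrm1 differed by -0.066 in stem III-like, -0.0059 in enterocyte-like, -0.31 in Paneth-like and 0.11 in enteroendocrine-like cells, and passed in none.

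Paneth-like cells showed the 1 call among members, Slc2a1 higher by 0.75 ± 0.19 on the log2 scale (edgeR adjusted p = 0.0363), of 9 tested, against 2.19% of 9994 genes higher and 1.69% lower. Slc2a1 was at 46.1 on day 2, 29.0 and 66.8 on day 3, 57.7 on day 4, and 57.1 and 78.3 on day 6 with KPT-330, and at 26.9, 32.0, 36.3, and 35.9 and 38.8 in controls. All treated libraries but replicate 1 of day 3 lay above every control. At an unadjusted p under 0.05 were also Pkm (-0.45 ± 0.13), Hk2 (0.33 ± 0.10), Tpi1 (-0.33 ± 0.12) and Pfkp (0.41 ± 0.16), with edgeR adjusted p = 0.0682, 0.0884, 0.144 and 0.17. The Slc2a1 call was lost in 11 of 17 alternatives, 8 of them removals of 1 library, and the number of members called ran from 0 to 4 over the removals. A test of whether the KPT-330 difference itself differed between Paneth-like and stem III-like cells called none of 10 members, and 0.298% of 9733 genes. For Slc2a1 that difference was 0.33 ± 0.50, from 7 libraries of which 2 had KPT-330.

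**Figure D4:**
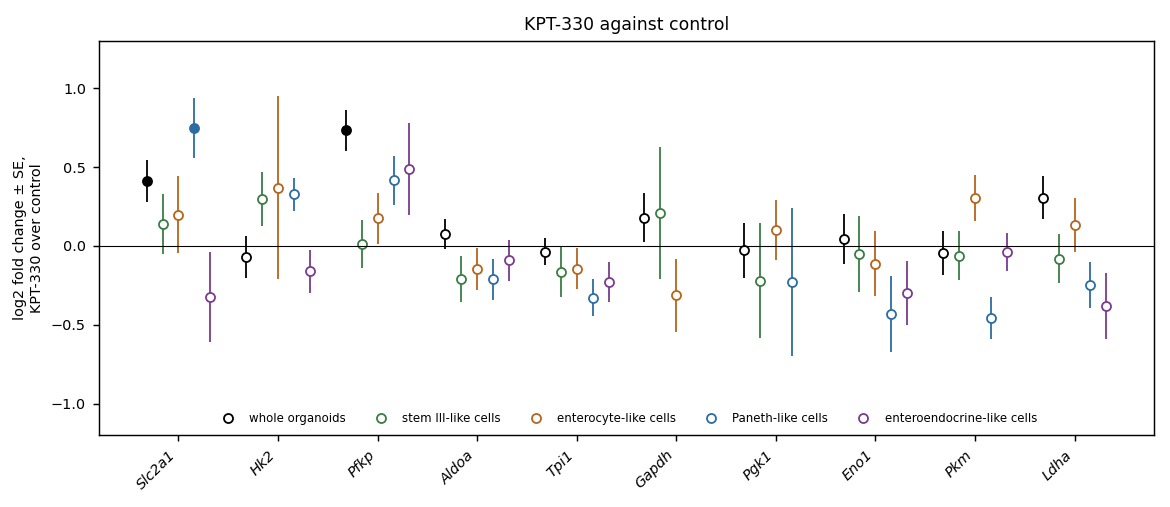
Log2 fold change ± SE (y axis) of KPT-330 over control for each gene (x axis) in whole organoids and in 4 cell types, which cover unlike days, with filled circles for an edgeR adjusted p under 0.05. Pfkp (0.73) and Slc2a1 (0.41) were called in whole organoids and Slc2a1 (0.75) in Paneth-like cells.

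The shares of cell types moved with KPT-330. Enterocyte-like cells, the type with the most Pfkp and the least Hk2, were 24.6% of the cells in the control and 37.6% with KPT-330 on day 2, 9.29% against 29.7% and 31.0% on day 3, 3.62% against 12.4% on day 4, and 7.10% and 2.02% against 20.9% and 2.50% on day 6. Enteroendocrine-like cells, the type with the most Hk2, were 17.1% in the control and 5.74% with KPT-330 on day 2 and 23.9% against 11.2% and 9.72% on day 3. To set shares beside the levels, each cell type was given its level pooled over the ENR+CD controls, without ENR+CV, in every library. Types were weighted by their share of the library's UMIs and not of its cells. The estimate was added after the values had been seen, without scaling for composition and without a test. For Pfkp the mean log2 ratio over days was 0.42 as observed and 0.27 from the shares alone. For Hk2 it was -0.33 observed and -0.32 from shares, and on days 2 and 3 -0.91 and -0.95 observed against -0.55 and -0.63 from shares. For Slc2a1 it was 0.10 observed and -0.02 from shares, with 0.55 and -0.06 on day 6. These observed ratios have no TMM factors. With them, Hk2 differed by 0.058 on day 4 and 0.31 on day 6, in place of -0.28 and -0.054, so its observed direction on these days turned with the scaling, and over all days it was -0.07 ± 0.14.

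**Figure D5:**
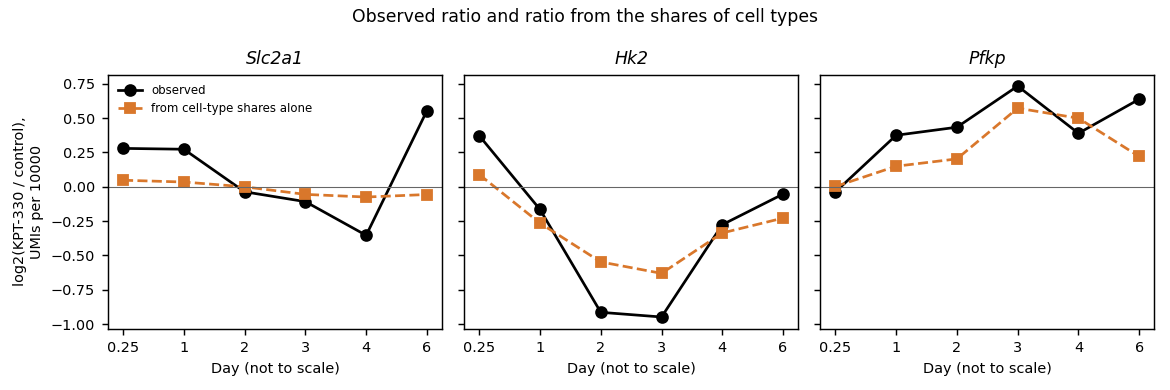
Log2 ratio of KPT-330 to control (y axis, from UMIs per 10000) on each day (x axis, not to scale) as observed (circles) and from cell-type shares (squares). Shares are of UMIs, with each type held at its pooled level in the ENR+CD controls. The estimates for Pfkp and Hk2 had the direction of the observed ratio on days 1 to 6 on this scale, without TMM factors, with which the Hk2 ratio was above 0 on days 4 and 6, and for Slc2a1 the estimate stayed between -0.08 and 0.05.

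Isoforms and neighbouring pathways were counted in fixed lists. Of the other glycolytic steps and isoforms (13 of 16 tested in whole organoids), 4 were higher with KPT-330 and 2 lower, beside 14.4% and 14.2% of all genes. Pklr, the pyruvate kinase of liver and red cells (0.88 ± 0.12), and Hk1 (0.37 ± 0.13) were among the higher, and Pfkl (-0.43 ± 0.13) was among the lower. Pklr was at 951 ± 440 CPM in untreated enterocyte-like cells (n = 9), above the other types. Within enterocyte-like cells, 1 of 11 genes of this list was called, Aldoc (-0.75 ± 0.18), and within enteroendocrine-like cells Aldoc was lower as well (-0.84 ± 0.19).

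Of 6 sugar transporters tested, 3 were higher with KPT-330 and 1 lower. Slc2a5, the fructose transporter (1.60 ± 0.16), Slc5a1, the sodium-glucose cotransporter SGLT1 (1.42 ± 0.22), and Slc2a2, GLUT2 (1.12 ± 0.27), were higher, and Slc2a3, GLUT3 (-1.94 ± 0.46), was lower. Within enterocyte-like cells, where no member passed, Slc2a5 was higher by 1.26 ± 0.24 and Slc5a1 by 0.80 ± 0.20 (edgeR adjusted p = 0.00509 and 0.0391). Of 8 gluconeogenesis genes, 4 were higher in whole organoids and none lower, with Fbp1 (2.23 ± 0.46), G6pc (2.09 ± 0.23) and Fbp2 (0.68 ± 0.19) the furthest. Within enterocyte-like cells G6pc was higher by 1.12 ± 0.21. Pyruvate and lactate genes gave 3 higher and 1 lower of 16, glycolysis regulators 2 higher of 10, pentose phosphate genes 1 higher of 7 and hypoxia targets outside glycolysis 1 higher and 2 lower of 15. Over all genes in whole organoids, 14.4% were higher and 14.2% lower. The shares of higher genes among sugar transporters (3 of 6) and gluconeogenesis genes (4 of 8) lay above that of all genes. The other lists of this paragraph lay nearer to it. The lists are short and were not tested as sets. The median log2 differences were 0.33 for the other glycolytic genes, 0.69 for sugar transporters, 0.49 for gluconeogenesis, 0.23 for pyruvate and lactate genes, 0.07 for regulators, 0.09 for the pentose phosphate pathway and -0.10 for hypoxia targets, beside -0.0023 over all genes.

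Along the untreated course, the oxidative and non-oxidative branches of the pentose phosphate pathway, which draws on glucose phosphate, were lower as most members were. Of 7 genes, 5 were lower at day 6 than at day 0 and none was higher, with Rpia at -1.42 ± 0.20, Pgd at -1.38 ± 0.21 and Tkt at -1.32 ± 0.23, and the median of the list was -1.0. Beside these counts, 21.1% of all genes were higher and 21.7% lower. Of 15 hypoxia target genes outside glycolysis, 4 were higher, a share near that of all genes, among them Bnip3 (1.20 ± 0.26) and Vegfa (1.03 ± 0.19), and 3 were lower, likewise near it, among them Car9 (-1.83 ± 0.18). Of 16 pyruvate and lactate genes, 3 were higher and 6 lower, including the lactate transporter Slc16a1 (-1.79 ± 0.23). Sugar transporters gave 3 higher and 1 lower of 6, and gluconeogenesis 3 lower of 8. Glycolysis regulators gave 2 higher, Txnip (0.84 ± 0.23) and Arrdc4 (0.66 ± 0.19), both arrestin-family genes that limit glucose uptake, and 1 lower, Hif1a (-0.49 ± 0.18), of 10.

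Between enterocyte-like and Paneth-like cells, 7 of 8 gluconeogenesis genes, 3 of 4 sugar transporters, 8 of 12 other glycolytic genes, 6 of 7 pentose phosphate genes and 11 of 15 pyruvate and lactate genes were higher. Each of these shares lay above the 33.5% of all genes, and 1 gluconeogenesis gene, Pck2, was lower (-2.43 ± 0.22). Hkdc1, a further hexokinase-domain gene, was higher by 5.29 ± 0.21 where Hk2 was lower by 3.52 on the log2 scale. Hkdc1 was at 225 ± 32.5 CPM in enterocyte-like cells (n = 9).

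Across the 17 libraries, each member's log2 level was set against the mean of the others, as a description of points that share TMM scaling and culture. The Pearson r was 0.87 for Eno1 and Tpi1, 0.82 for Ldha, 0.76 for Pgk1, 0.74 for Aldoa, 0.66 for Pkm, 0.56 for Gapdh, 0.52 for Pfkp, 0.11 for Slc2a1 and -0.43 for Hk2. Among 10437 genes with at least 500 UMIs, those outside the lists most like the mean of the members were Tysnd1 and Pigs (r = 0.83 each), Klhdc3 (0.82), Traf7 (0.79) and Surf1 (0.79).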

How the data were processed

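Single-cell RNA was measured with Seq-Well S3 in 17 libraries. Per the study's methods, the authors converted reads with bcl2fastq, aligned them to mm10 with STAR in the Drop-seq pipeline, collapsed them by UMI and removed doublets. The deposited tables hold raw UMI counts per gene and cell. Annotation, strand and multi-mapping reads are not given in the sources used here. Of 26229 barcodes, the 19877 in the authors' filtered set were used, without a further filter.

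Counts were summed per library, or per library and cell type with at least 20 cells, because cells of 1 library are not replicates. The main test was edgeR's (4.0.16) quasi-likelihood test with TMM factors, filterByExpr and p-values adjusted by Benjamini-Hochberg over every tested gene, called under 0.05. KPT-330 tests had day as a factor and cell type tests the library as a block. Cell types came from SCTransform and Louvain clustering in Seurat (5.3.0, R 4.3.3) without 46 genes of the lists among the variable genes, and were named from the study's marker genes. The script was tested on simulated data, where 92% of 200 genes changed by 1 on the log2 scale were recovered in the KPT-330 design of whole organoids. For KPT-330 in Paneth-like cells it was 83%, and for the untreated slope, with that change spread over 6 days, 67.5%. Wrong calls were 4.17%, 7.26% and 5.59% of all calls, in the same order.

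Members and lists were chosen with earlier results of these data known. The members are named throughout, and of other lists at most 3 called genes per direction, by absolute log2 difference; some genes of these lists are counted but not reported here by name. Alternatives were DESeq2 (1.42.0), RLE or total-count scaling, no filter on low counts, other cell filters and clusterings, a slope over log2 time, the replicate number as a block, and leaving out each library.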

Additional observations from a re-analysis of the deposited data

How the results depend on the processing

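Alternatives were run for all 10 members in KPT-330 against control in whole organoids and, in the other comparisons, for the members called there. Of these results, 692 kept both direction and call, 58 lost the call, 3 gained one and 25 changed sign. The sign changes were in whole organoids with KPT-330, in members that had not passed the test, and signs of members not called in other comparisons were not followed. Under total counts only, Aldoa came to -0.19, Eno1 to -0.21 and Gapdh to -0.074, and without the 50 most abundant genes Aldoa came to -0.055 and Eno1 to -0.086, with 1 member called. In cells with at least 1000 genes Pgk1 came to 0.020. Leaving out each library gave -0.042 to 0.13 for Eno1, -0.15 to 0.052 for Hk2, -0.13 to 0.13 for Pgk1, -0.13 to 0.052 for Pkm, -0.10 to 0.017 for Tpi1 and 1 to 2 members called. The number called ran from 5 to 9 for day 6 against day 0, from 1 to 3 for days 0.25 and 1 against day 0, and from 0 to 4 for KPT-330 in Paneth-like cells. In Paneth-like cells it was 0 with the highest marker score per cell, 0 with log-normalised clustering, 2 with DESeq2 and 3 with no filter on low counts. The trend without the ENR+CV libraries called 1 member. The causes were not tested.

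Labels give the same replicate numbers to both conditions at day 6. There, replicate 1 minus replicate 2 correlated with r = 0.532 over 10516 genes between the conditions, but with only 2 pairs and no label of a shared origin the samples share only a number. With the replicate number as a block, 2 members were called for KPT-330, Pfkp (0.75) and Slc2a1 (0.44), out of 3957 genes, 8 for day 6 against day 0 out of 6397 genes, and 0 for the later against the earlier days. It changed no member's call.

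Over all genes, leaving out 1 library gave 2015 to 3969 calls in place of 3661 for KPT-330 in whole organoids, 99 to 662 in place of 388 in Paneth-like, 6 to 105 in place of 29 in stem III-like and 238 to 1572 in place of 630 for days 0.25 and 1. DESeq2 called 3807 genes for day 6 against day 0 in place of 5731 and 177 for days 0.25 and 1 in place of 630, and 2 in place of 29 for the difference between Paneth-like and stem III-like cells. With no filter on low counts, KPT-330 calls went from 29 to 182 in stem III-like, from 388 to 687 in Paneth-like and from 225 to 454 in enteroendocrine-like cells, those for days 0.25 and 1 from 630 to 1049, and those for the later against the earlier days from 0 to 349. The trend without the ENR+CV libraries called 2139 genes in place of 4806. Other clusterings gave 133 to 255 calls in Paneth-like cells, and 56 in stem III-like and 2 for the difference between these types with log-normalised clustering, and at least 50 cells per library gave 105 in stem III-like cells. Gapdh and Pgk1 rested on 11 to 146 and 18 to 129 UMIs per library.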
